A study of Mus musculus with 6 samples.

Results

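The insulin and IGF receptors (INSR, IGF1R and IGF2R), 2 of their substrates (IRS1 and IRS2) and the ligands IGF1 and IGF2 were followed in LAPC-4 tumors from mice fed Western diets of high (HiGI) or low (LoGI) glycemic index. These 7 genes were set by a list of human Ensembl identifiers, with earlier results of these data known. All 7 were found among the 60649 genes of the count table. LAPC-4 is a line of human prostate cancer (PC) cells whose growth responds to androgen. It was grown in the lower right flank of male CB.17 scid/scid mice, a strain that lacks functional B and T cells, bought at 6 to 8 weeks of age. All mice ate the HiGI diet first and were randomized when tumors averaged 200 mm3. The HiGI group stayed on a diet whose carbohydrate came from sucrose. The LoGI group moved to a diet whose carbohydrate came mainly from the high-amylose starch Hylon-VII with some maltodextrin, and which supplied the same share of energy as carbohydrate, fat and protein. Tumors were taken at a set volume after a short fast, so they were matched for size rather than for time on diet. RNA from 3 HiGI tumors (numbers 16, 20 and 26) and 3 LoGI tumors (numbers 19, 27 and 28) was sequenced, and each tumor came from a mouse that was housed alone. All 6 tumors come from the same cell line, so the spread between them is a spread between mice and not between patients.

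Insulin and the IGFs act through related receptors at the cell surface. INSR binds insulin with high affinity, IGF1R binds IGF1 and IGF2, and both are tyrosine kinases that can pair with each other. Once active they phosphorylate the docking proteins IRS1 and IRS2, which recruit PI3-kinase and so switch on AKT and mTOR, and they also feed the Ras-MAPK cascade. IGF2R, the cation-independent mannose 6-phosphate receptor, has no kinase and carries IGF2 to lysosomes. Most circulating IGF1 is made by the liver, and in PC both IGFs can also come from the tumor or from the stroma around it. The reads counted here were assigned to human genes, so serum hormones lie outside these measurements. The mouse's own Igf1 and Ins genes were not counted as such. Reads that mapped to both genomes were kept, however, so some reads on the human genes may come from mouse cells, which was not tested. The question for the diets is whether the tumor's own receptors, substrates and ligands differed with carbohydrate quality.

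Library totals ran from 18749813 to 21550812 reads counted on genes, and the totals of the diets overlapped. The scaling factors from TMM normalization did not overlap, lying between 1.003 and 1.034 in HiGI and between 0.964 and 1.003 in LoGI tumors, and the part of this difference in the values below was measured by refitting with library totals only. Each difference was tested by the quasi-likelihood test of edgeR, and p was adjusted by the Benjamini-Hochberg method over all 24545 genes that had 10 or more reads in the 6 tumors together. In a principal component analysis of log2 CPM (reads scaled to library size, on a log scale) the diets separated along the leading axis, with 51.3% of the variance, and HiGI tumor 26 lay apart from the other HiGI tumors on the next. Of all tested genes, 3.45% differed at an adjusted p under 0.05 by 2-fold or more (1 or more on the log2 scale) in either direction, and 3.38% did so with lower counts in LoGI tumors. Prostate, stromal and immune markers were not looked up, because the count table carries no symbols, so the identity of the cells rests on the sample labels.

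All 7 genes passed the filter on summed reads, and 2 of the 7 passed that threshold, IRS2 and IGF2, both lower in LoGI tumors. IGF2 passed the filter through its 27 reads in HiGI tumors, beside 2 in LoGI tumors. A stricter filter, edgeR's filterByExpr, removed it, so its call does not stand level with that of IRS2. Another 2, IGF1R and IGF2R, had a lower normalized level (CPM) in every LoGI tumor than in any HiGI tumor but did not pass the adjusted test, and INSR, IRS1 and IGF1 overlapped between diets. The separation of all LoGI below all HiGI tumors, found for 4 of the 7, was found for 10.9% of all tested genes. An unadjusted p under 0.05 was reached by 4 of the 7 and by 13.3% of all tested genes. The median log2 fold change (LoGI over HiGI) was -0.28 over the 7 genes and 0.00335 over all tested genes.

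**Figure D1:**
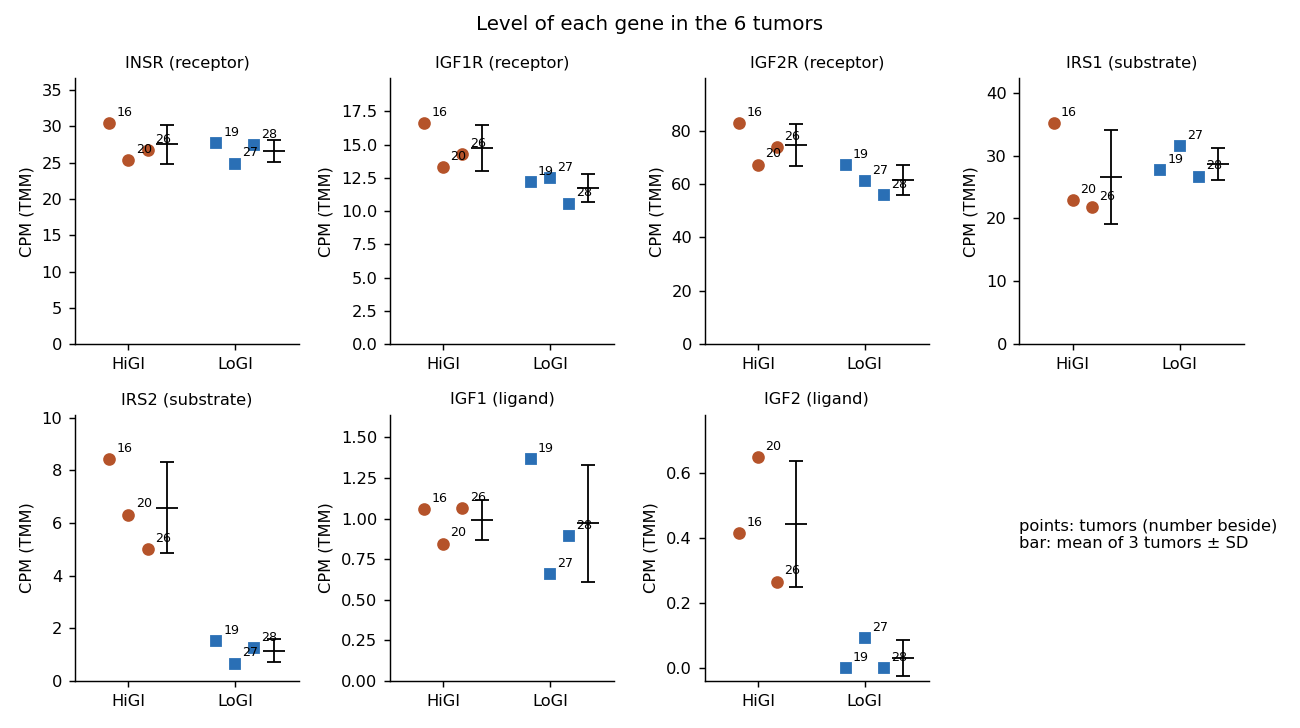
Level of each gene in CPM (reads scaled to library size, TMM-normalized, y axes differ) in the 3 HiGI and 3 LoGI tumors, with tumor numbers beside the points and bars for the mean ± SD. IRS2 and IGF2 show a gap between diets, IGF1R and IGF2R show a small one, and INSR, IRS1 and IGF1 overlap.

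IRS2 (ENSG00000185950.9) showed the clearest difference by diet among the 7 genes, with the smallest p. The protein links the receptors to PI3-kinase, like IRS1, and in many tissues its transcript is under tighter nutritional and hormonal control than that of IRS1. IRS2 was read 183 times in tumor 16, 127 in tumor 20 and 94 in tumor 26 among the HiGI tumors, and 29 in tumor 19, 14 in tumor 27 and 24 in tumor 28 among the LoGI tumors. The lowest HiGI tumor therefore held more than 3 times the reads of the highest LoGI tumor. In normalized units the level was 6.58 ± 1.72 CPM (SD, n = 3) in HiGI and 1.15 ± 0.444 CPM (SD, n = 3) in LoGI tumors. The level was thus 5.79-fold higher in HiGI tumors, which is -2.53 on the log2 scale for LoGI over HiGI (DESeq2 standard error 0.31, edgeR adjusted p = 2.35e-05). The 95% interval of the fold from DESeq2 ran from 3.77 to 8.85. In a bulk tumor, fewer cells that express IRS2 and less IRS2 RNA per cell cannot be told apart.

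The IRS2 difference did not rest on a single tumor. With each tumor left out in turn, its log2 fold change ran from -2.79 to -2.23, and the largest adjusted p of these edgeR fits was 0.00026. It was -2.58 with library totals only, so it was as large without the TMM factors. Within the LoGI diet the spread of IRS2 was wide, with a coefficient of variation of 38.8% against 21.2% from counting error alone, and in HiGI tumors it was 26.2% against 8.62%. Both spreads were small beside the gap between diets.

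A decrease of this size was uncommon among genes with a level at least that of IRS2 but not unique to IRS2. Over all 24545 tested genes, IRS2 ranked 674 from the lowest log2 fold change. No set of genes matched to its depth was compared. Of the 12046 genes with a mean CPM at least as high as that of IRS2, 117 genes (IRS2 among them), or 0.971%, had a log2 fold change as low or lower, and 254 passed the threshold with lower counts in LoGI tumors. The genes whose profile over the 6 tumors was most like that of IRS2 were sought among 15804 other genes with at least 10 reads in every tumor, by the root mean square difference of log2 CPM after centring each gene on its mean. The closest was ENSG00000143515.19, at 0.133 log2 units, with 64 to 103 reads per tumor in the HiGI group and 10 to 17 in the LoGI group. ENSG00000105137.13 was next at 0.217 log2 units, and the next gene after it lay at 0.226. By the same measure INSR, IGF1R, IGF2R, IRS1 and IGF1 lay from 1.14 log2 units (IGF1R) to 1.36 (IRS1) from IRS2, while IGF2 had too few reads to be measured in this way. Because the measure is not scaled, a gene with little difference between diets lies far from IRS2 by construction. These distances therefore add little to the fold changes.

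IRS1 (ENSG00000169047.6), the other substrate, did not share the decrease. It was read 766 times in tumor 16, 461 in tumor 20 and 409 in tumor 26 among the HiGI tumors, and 527 in tumor 19, 672 in tumor 27 and 507 in tumor 28 among the LoGI tumors. HiGI tumor 16 was the highest of the 6 and the other HiGI tumors were the lowest, so the LoGI tumors lay within the range of the HiGI tumors. The level was 26.6 ± 7.45 CPM (SD, n = 3) in HiGI and 28.6 ± 2.54 CPM (SD, n = 3) in LoGI tumors, with a log2 fold change of 0.10 (edgeR adjusted p = 0.88). The 95% interval of the log2 fold change from DESeq2 ran from -0.22 to 0.43, which leaves out a change as large as that of IRS2. HiGI tumor 16 decided the spread of IRS1, and without that tumor the log2 fold change was 0.35 (edgeR adjusted p = 0.17).

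Because IRS1 and IRS2 are counted in the same library, their ratio within a tumor does not depend on normalization. Transcript length affects the ratio itself but is the same in every tumor. Of the reads on both substrates, IRS2 took 19.3% in HiGI tumor 16 (95% Clopper-Pearson interval 16.8% to 21.9%), 21.6% in HiGI tumor 20 (18.3% to 25.1%) and 18.7% in HiGI tumor 26 (15.4% to 22.4%). It took 5.22% in LoGI tumor 19 (3.52% to 7.41%), 2.04% in LoGI tumor 27 (1.12% to 3.40%) and 4.52% in LoGI tumor 28 (2.92% to 6.65%). No interval of a HiGI tumor met that of a LoGI tumor. The mean share was 19.9% ± 1.54 (SD, n = 3) in HiGI and 3.93% ± 1.67 (SD, n = 3) in LoGI tumors.

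On the log2 scale the IRS2 to IRS1 ratio was lower by 2.68 in LoGI tumors (a difference of -2.68), or 6.40-fold. An exact two-sided permutation test gave p = 0.1, the smallest value that 3 against 3 tumors allow, and p = 0.1 also after adjustment over the 2 ratios tested. IRS2 was the smaller part of the reads in all 6 tumors, and the summed level of both substrates overlapped between diets. That sum lay between 26.7 and 43.6 CPM in the HiGI group and between 27.9 and 32.1 CPM in the LoGI group. The share of IRS2 among these reads thus separated the diets, which restates its lower level beside a similar IRS1. The sum did not separate them, but it mostly follows IRS1 and could hardly show the IRS2 difference.

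**Figure D2:**
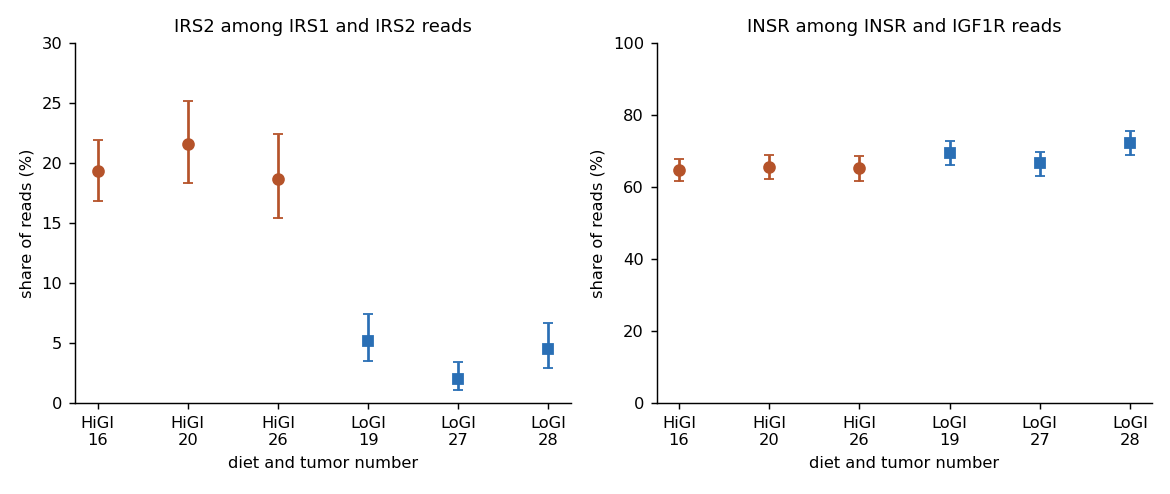
Share of IRS2 among reads on IRS1 and IRS2 (left, %) and of INSR among reads on INSR and IGF1R (right, %) in each tumor, with 95% Clopper-Pearson intervals that cover counting error only. IRS2 holds 18.7% to 21.6% in HiGI and 2.04% to 5.22% in LoGI tumors, while the INSR share lies between 64.7% and 72.2% in all 6.

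The receptors differed little. INSR (ENSG00000171105.14), the insulin receptor, was read 663 times in tumor 16, 509 in tumor 20 and 503 in tumor 26 among the HiGI tumors, and 527 in tumor 19, 531 in tumor 27 and 521 in tumor 28 among the LoGI tumors. All 3 LoGI counts fell within the range of the HiGI counts, and after normalization the groups still overlapped. The level was 27.5 ± 2.66 CPM (SD, n = 3) in HiGI and 26.6 ± 1.54 CPM (SD, n = 3) in LoGI tumors, with a log2 fold change of -0.05 (edgeR adjusted p = 0.92). The 95% interval of the log2 fold change from DESeq2 ran from -0.29 to 0.20, which is 0.870-fold to 1.22-fold for HiGI over LoGI.

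IGF1R (ENSG00000140443.15), a signaling receptor for both IGFs, was read 362 times in tumor 16, 267 in tumor 20 and 269 in tumor 26 among the HiGI tumors, and 232 in tumor 19, 267 in tumor 27 and 201 in tumor 28 among the LoGI tumors. After normalization every LoGI tumor (10.6 to 12.5 CPM) lay below every HiGI tumor (13.3 to 16.6 CPM). The level was 14.7 ± 1.72 CPM (SD, n = 3) in HiGI and 11.7 ± 1.04 CPM (SD, n = 3) in LoGI tumors, a difference of -0.33 on the log2 scale (DESeq2 standard error 0.16). This did not pass the adjusted test (edgeR adjusted p = 0.28). HiGI tumor 16 was the highest, and without it the log2 fold change was -0.23. With library totals only it was -0.37.

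IGF2R (ENSG00000197081.16), which clears IGF2 by carrying it to lysosomes, had the most reads of the 7 genes, which depends on transcript length as well as on level. It was read 1804 times in tumor 16, 1351 in tumor 20 and 1389 in tumor 26 among the HiGI tumors, and 1281 in tumor 19, 1305 in tumor 27 and 1065 in tumor 28 among the LoGI tumors. HiGI tumor 20 and LoGI tumor 19 were almost level at 67.23 and 67.19 CPM, so the diets were only just apart. With library totals only, the log2 fold change was -0.32 in place of the -0.28 found with TMM. The level was 74.7 ± 7.88 CPM (SD, n = 3) in HiGI and 61.4 ± 5.63 CPM (SD, n = 3) in LoGI tumors, a difference of -0.28 on the log2 scale (DESeq2 standard error 0.11). Like IGF1R it did not pass the adjusted test (edgeR adjusted p = 0.19). The DESeq2 95% intervals of the log2 fold change ran from -0.50 to -0.05 for IGF2R and from -0.63 to -0.02 for IGF1R, so neither reached a change of 1 in size.

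The balance of INSR and IGF1R, which bears on how the receptors can pair, was compared in the same way as the substrates. Of the reads on both receptors, INSR took 64.7% in tumor 16, 65.6% in tumor 20 and 65.2% in tumor 26 of the HiGI group. It took 69.4% in tumor 19, 66.5% in tumor 27 and 72.2% in tumor 28 of the LoGI group. The HiGI tumors were within 1 percentage point of each other, and the LoGI tumors were all higher and more spread. The 95% Clopper-Pearson intervals were 61.7% to 67.6% for tumor 16, 62.1% to 68.9% for tumor 20 and 61.7% to 68.5% for tumor 26 of the HiGI group. They were 66.0% to 72.7% for tumor 19, 63.1% to 69.8% for tumor 27 and 68.7% to 75.4% for tumor 28 of the LoGI group. The interval of LoGI tumor 28 lay above those of HiGI tumors 16 and 26 and met that of HiGI tumor 20, and those of LoGI tumors 19 and 27 overlapped all 3 HiGI intervals. On the log2 scale the ratio was higher by 0.28 in LoGI tumors, with p = 0.1 in an exact two-sided permutation test, the smallest value possible with 3 against 3 tumors.

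**Figure D3:**
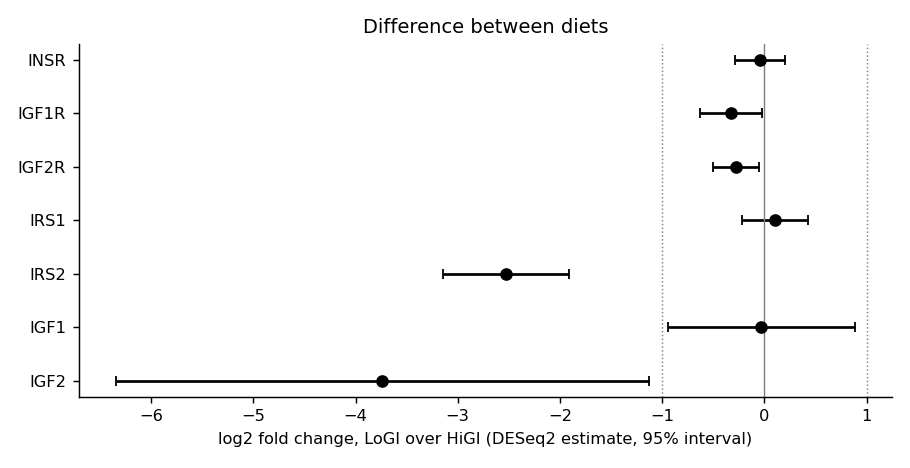
Log2 fold change (LoGI over HiGI, x axis) of each gene from DESeq2 with its 95% interval; the solid line marks no difference and the dotted lines a change of 1 in size. Only IRS2 and IGF2 lie wholly beyond -1. The wide interval of IGF2 follows its low reads, and its adjusted p in the DESeq2 Wald test was 0.0875.

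The ligands had few reads in every tumor. IGF1 (ENSG00000017427.17), the growth factor that mediates much of the action of growth hormone, was read 23 times in tumor 16, 17 in tumor 20 and 20 in tumor 26 among the HiGI tumors, and 26 in tumor 19, 14 in tumor 27 and 17 in tumor 28 among the LoGI tumors. The highest and the lowest of the 6 were both LoGI tumors. The level was 0.989 ± 0.124 CPM (SD, n = 3) in HiGI and 0.971 ± 0.361 CPM (SD, n = 3) in LoGI tumors, with a log2 fold change of -0.04 (edgeR adjusted p = 0.99). At this depth the 95% interval of the log2 fold change from DESeq2 ran from -0.95 to 0.89, so a level up to 1.93-fold higher in HiGI tumors remained inside it.

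IGF2 (ENSG00000167244.21), a fetal growth factor whose gene is imprinted, was close to the limit of detection. It was read 9 times in tumor 16, 13 in tumor 20 and 5 in tumor 26 among the HiGI tumors, and 0 in tumor 19, 2 in tumor 27 and 0 in tumor 28 among the LoGI tumors. Every HiGI tumor was above, and every LoGI tumor below, 3 reads, a detection limit that was set by choice and not measured from these data. Summed over tumors there were 27 reads in HiGI and 2 in LoGI, a ratio of 13.6 per read sequenced, with an exact 95% interval from 3.42 to 118 that covers counting error only. The fitted difference was -3.50 on the log2 scale (DESeq2 standard error 1.33, edgeR adjusted p = 0.0365) and depends on the prior count, being -2.03 with a prior count of 2.

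The call on IGF2 was less secure than that on IRS2. The DESeq2 Wald test gave an adjusted p of 0.0875, and edgeR's filterByExpr removed the gene as too low to test. Leaving out HiGI tumor 16 or 20, or LoGI tumor 19 or 28, raised the adjusted p of edgeR's test to between 0.0665 and 0.162. IGF2 also overlaps the INS-IGF2 readthrough gene and an antisense transcript, and how RSEM divided reads between IGF2 and the readthrough gene was not tested.

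**Figure D4:**
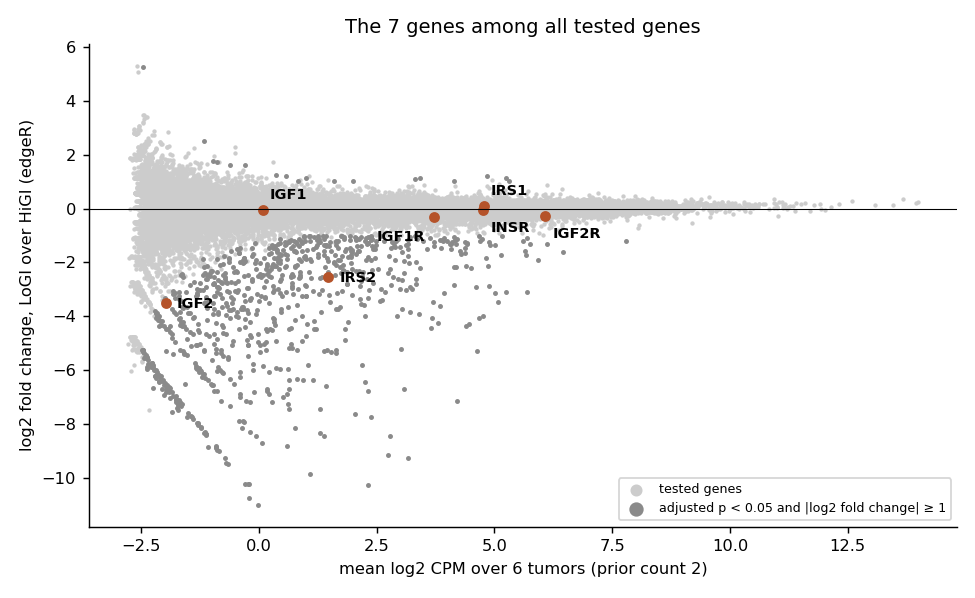
Log2 fold change (LoGI over HiGI, edgeR, y axis) against mean log2 CPM over the 6 tumors (x axis) for the 24545 tested genes, with genes past the threshold in dark grey and the 7 insulin and IGF genes in color. IRS2 lies below 0 among genes past the threshold at a moderate level, IGF2 lies at the low end of the read range, and the other 5 lie near 0.

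Leaving out a tumor changed the sign of INSR, IRS1 and IGF1, whose differences were near 0, and of none of the other 4 genes. The direction of IRS2, IGF2, IGF1R and IGF2R was lower in LoGI tumors in every fit that tested them. Reads that mapped to both the human and the mouse genome were kept by the authors, and the part of such reads in these counts was not tested.

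**Figure D5:**
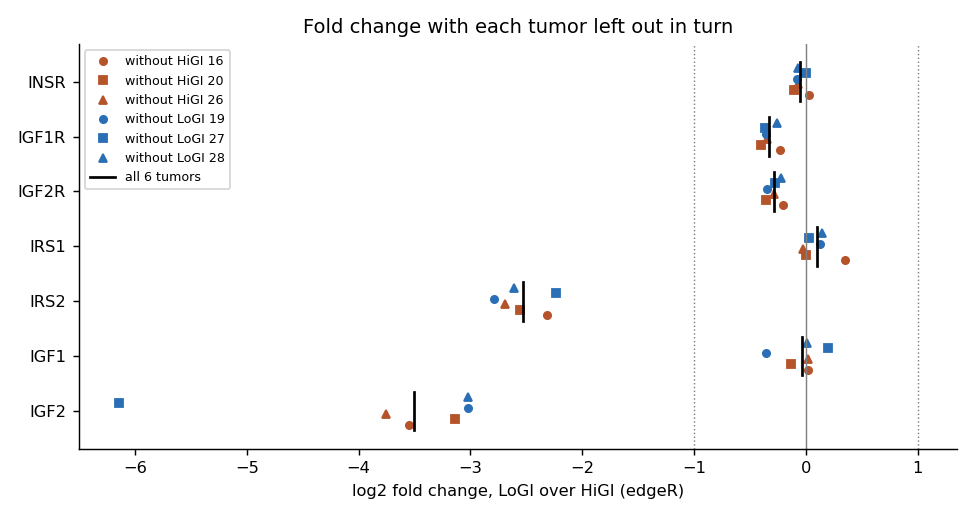
Log2 fold change (LoGI over HiGI, edgeR, x axis) of each gene in the fit on all 6 tumors (black bar) and in 6 fits that each left out 1 tumor (points). IRS2 stays between -2.79 and -2.23, while IGF2 ranges from -6.15, without the only LoGI tumor in which it was read, to -3.02.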

How the data were processed

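Total RNA from 6 tumors was made into stranded mRNA libraries and sequenced as single 75 bp reads, with an average of about 30000000 reads per tumor per the labels. Reads were mapped by the authors with BBMap to human (GRCh38.p13) and mouse (GRCm38.p6), those unique to mouse were removed, and the rest were aligned with STAR and quantified with RSEM, whose versions are not given in the sources used here. The deposited values are whole-number counts per gene, not normalized. How RSEM estimates became whole numbers is not stated, and the sample records name the organism as mouse although the genes are human. Diets came from the labels and columns were matched to tumors by title. 0 columns were left unmatched.

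Counts were TMM-normalized and tested with edgeR 4.0.16 (glmQLFit and glmQLFTest, R 4.3.3) on all genes with at least 10 reads over the 6 tumors. The design had diet as its only term. DESeq2 1.42.0 gave standard errors, 95% intervals and an alternative test. The scripts were tested on simulated counts, with changes planted only in genes that had more reads than IGF1 and IGF2. That test therefore does not cover changes at the depth of these ligands. No pair of tumors agreed within sampling noise (chi-square per degree of freedom of 4.91 or more). Genes were called where the adjusted p was under 0.05 and the difference was 1 or more on the log2 scale. Shares have exact Clopper-Pearson intervals, log2 ratios within a tumor had 0.5 reads added, and 3 reads were taken as the detection limit. The Clopper-Pearson intervals and the interval of the summed IGF2 ratio cover counting error only, and reads carry no molecular identifiers. The DESeq2 intervals also take in the spread between tumors as estimated by its fit.

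The 7 genes, tests and lists were chosen with earlier results of these data known. Beside the 7, the genes to be named were the 3 most like the member with the smallest p and genes of pathway and marker lists. The human identifiers come without symbols and the reference used here is of mouse, so no list was looked up, 2 genes outside the 7 are given by identifier, and no human length, position or sequence is given. Values set side by side for different genes are therefore reads or CPM, not corrected for transcript length, and give no order of expression.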

Additional observations from a re-analysis of the deposited data

How the results depend on the processing

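IRS2 kept its direction and its call in all 13 alternatives, with log2 fold changes from -2.79 to -2.23 when a tumor was left out and from -2.58 to -2.44 otherwise. IGF1R and IGF2R kept their direction and never passed the threshold. IGF2 lost its call in the DESeq2 Wald test (log2 fold change -3.74) and in 4 of the 6 fits that left out a tumor. Over all 6 of those fits its log2 fold change ran from -6.15 to -3.02, and the fit at -6.15 kept the call. IGF2 could not be tested with filterByExpr, which removes genes of low counts. The number of the 7 genes called was therefore 1 in place of 2 with the DESeq2 Wald test and with filterByExpr, and ran from 1 to 2 with a tumor left out. The sign turned with a tumor left out for IGF1 (-0.36 to 0.20), INSR (-0.104 to 0.0308) and IRS1 (-0.0220 to 0.355), none of which was called in any fit. Over all genes, the number higher in LoGI tumors (18) became 39 with a filter of 1 read and 90 with no minimum fold change, and ran from 4 (without LoGI tumor 19) to 26 with a tumor left out. The number lower (829) ran from 685 to 846 with a tumor left out. It was 678 with filterByExpr, 938 with a filter of 1 read and 1071 with no minimum fold change. The receptor and substrate ratios kept their direction in every alternative run. Causes not named here were not tested. The alternatives for the pathway lists were not run, since those genes were not looked up. No paired analysis was possible because the labels give no replicate numbers that the diets share. Depth limits IGF1 and IGF2, which had at most 26 and 13 reads in any tumor.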
